A study of Mus musculus with 60 samples.

Results

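Ventral and dorsal hippocampus were compared in mice that had been exposed to Handling, Restraint or Swim. The 2 regions were sampled in 30 of the 60 libraries of the study, as 5 ventral and 5 dorsal libraries after each treatment. All mice were wild type C57BL/6 animals at postnatal day 105, an inbred laboratory strain, and the tissue of treated mice was taken 45 minutes after the treatment. Homecage mice of the same strain, genotype and age are the untreated groups, and their ventral and dorsal libraries are set beside the treated pairs. The samples used here were chosen by the region and treatment in their titles, and genes were joined on the Ensembl gene ID. Of the 13986 genes held by any of the 10 deposited tables, 13445 were listed in all 6 treated tables and form the set described here. The labels do not state the sex of the mice, how long a treatment lasted, or whether a ventral and a dorsal library of 1 number came from the same animal.

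The hippocampus is a curved structure whose dorsal end is tied mainly to spatial memory and whose ventral end is tied to emotion, stress and feeding. The same cell types, dentate granule cells, CA3 and CA1 pyramidal neurons and interneurons, run along its whole length, but many genes are graded or bounded along it. Ventral CA1 and the subiculum project to the amygdala, the hypothalamus and the prefrontal cortex. Guidance molecules, secreted matrix proteins, transcription factors and transmitter receptors are known to mark positions on this axis.

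Each value below is the deposited mean estimated count of 5 libraries, scaled to CPM (counts per 1 M counts of its column, M being mega). A regional difference is the log2 of ventral over dorsal CPM with 0.5 added to both, so a value of 1 is a 2-fold higher level in ventral tissue. The column totals were 24.2 M estimated counts in ventral Handling, 24.9 M in ventral Restraint and 24.5 M in ventral Swim, against 24.1 M in dorsal Handling, 23.0 M in dorsal Restraint and 24.2 M in dorsal Swim. No values of single libraries were used here. The error of a regional difference is therefore its spread over the 3 treated pairs, given as an SD. The spread between mice enters this SD only through the means of 5 libraries, and the spread within a group is not held. The median SD over the 3 pairs was 0.07 on the log2 scale over the 13421 genes tested. The tissue is bulk, so fewer cells of a type and less RNA per cell cannot be told apart.

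One marker group stood apart before any result. Ttr, which encodes transthyretin and is made in the brain almost only by the choroid plexus, was at 1168 CPM in ventral Handling, 35.3 in ventral Restraint and 42.1 in ventral Swim, against 89.5, 1229 and 64.2 CPM in dorsal Handling, dorsal Restraint and dorsal Swim. The choroid plexus is the sheet in the ventricle that secretes cerebrospinal fluid and lies against the hippocampus. Summed over the 7 joined markers of 16 listed, the level was 2040 CPM in ventral Handling and 2144 CPM in dorsal Restraint, and between 212 and 333 CPM in the other 4 treated groups. Without the Handling pair 6 of the 7 markers passed edgeR's regional test as lower in ventral tissue, and without the Restraint pair 6 of 7 passed as higher. Over all 3 pairs 0 passed in edgeR, limma or DESeq2, and 0 had an unadjusted p under 0.05 in edgeR. With an error taken from the spread between mice implied by the authors' p-values, 1 passed as higher and 1 as lower. Genes that follow these markers are given with their values in both groups, and the part of choroid plexus in them was not tested.

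**Figure D1:**
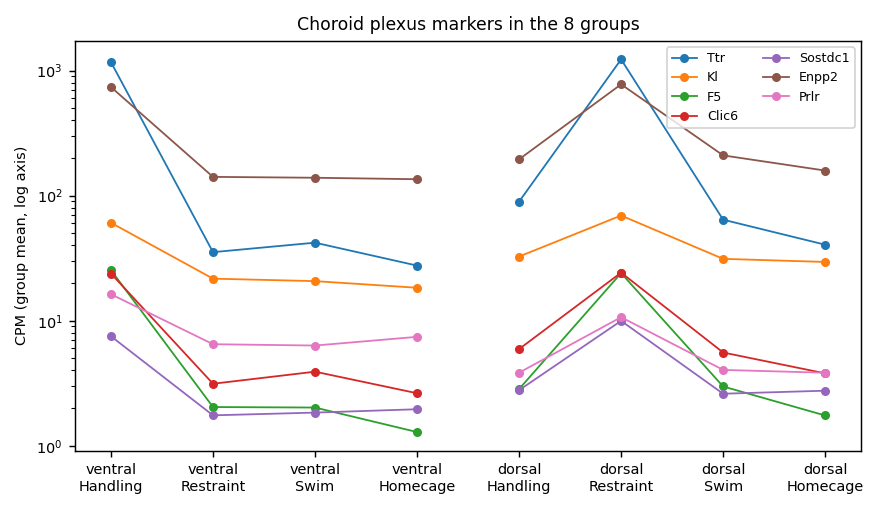
CPM (group mean of 5 libraries, log axis) of 7 choroid plexus markers in the ventral and dorsal groups, with 1 line per gene and the treated groups left of Homecage. Ventral Handling and dorsal Restraint stand above the other groups for each gene, with Ttr at 1168 and 1229 CPM.

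Sequences just before the start of 8 genes that carry the regional difference are shown first. Dlk1, Nr2f2, Rxrg, Oxtr and Htr2c were higher in ventral tissue and Lct, Robo3 and Sema5a lower. Each line gives the 250 bases before the RefSeq start (assembly GRCm38.p6), 5′ to 3′ on the strand of the gene. Capitals mark the letters AGGTCA or, for the other strand, TGACCT, the half-site read by nuclear receptors such as the proteins of Nr2f2 and Rxrg.
Dlk1: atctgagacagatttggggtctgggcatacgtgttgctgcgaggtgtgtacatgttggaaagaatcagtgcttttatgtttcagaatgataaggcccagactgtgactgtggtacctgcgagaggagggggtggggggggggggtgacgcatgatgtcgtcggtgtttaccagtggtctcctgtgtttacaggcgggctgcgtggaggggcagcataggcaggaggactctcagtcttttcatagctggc
Nr2f2: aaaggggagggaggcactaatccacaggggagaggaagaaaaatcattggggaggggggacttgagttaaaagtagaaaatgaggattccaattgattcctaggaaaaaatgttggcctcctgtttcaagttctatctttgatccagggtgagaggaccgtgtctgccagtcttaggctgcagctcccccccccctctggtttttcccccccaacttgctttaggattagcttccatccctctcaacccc
Rxrg: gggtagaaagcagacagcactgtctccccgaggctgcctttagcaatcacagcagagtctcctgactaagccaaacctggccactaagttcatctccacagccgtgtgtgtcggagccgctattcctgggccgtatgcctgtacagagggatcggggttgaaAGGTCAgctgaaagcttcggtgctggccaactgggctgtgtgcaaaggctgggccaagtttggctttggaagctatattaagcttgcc
Oxtr: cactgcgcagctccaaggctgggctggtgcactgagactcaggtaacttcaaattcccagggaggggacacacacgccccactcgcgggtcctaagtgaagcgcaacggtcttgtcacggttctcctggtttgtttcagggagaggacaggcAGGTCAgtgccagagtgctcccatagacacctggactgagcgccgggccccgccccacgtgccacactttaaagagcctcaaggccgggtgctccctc
Htr2c: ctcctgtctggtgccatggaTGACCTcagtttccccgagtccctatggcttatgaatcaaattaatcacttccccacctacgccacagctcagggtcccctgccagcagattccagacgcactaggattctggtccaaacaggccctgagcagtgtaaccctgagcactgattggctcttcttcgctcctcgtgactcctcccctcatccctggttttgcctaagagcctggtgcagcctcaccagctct
Lct: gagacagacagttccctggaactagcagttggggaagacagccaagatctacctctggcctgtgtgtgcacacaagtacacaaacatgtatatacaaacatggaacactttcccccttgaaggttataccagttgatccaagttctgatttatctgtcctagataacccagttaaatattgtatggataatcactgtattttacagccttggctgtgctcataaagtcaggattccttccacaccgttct
Robo3: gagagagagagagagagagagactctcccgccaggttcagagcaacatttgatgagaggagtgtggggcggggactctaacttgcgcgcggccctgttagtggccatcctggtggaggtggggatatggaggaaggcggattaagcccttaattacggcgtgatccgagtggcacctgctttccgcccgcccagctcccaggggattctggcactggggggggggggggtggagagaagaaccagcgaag
Sema5a: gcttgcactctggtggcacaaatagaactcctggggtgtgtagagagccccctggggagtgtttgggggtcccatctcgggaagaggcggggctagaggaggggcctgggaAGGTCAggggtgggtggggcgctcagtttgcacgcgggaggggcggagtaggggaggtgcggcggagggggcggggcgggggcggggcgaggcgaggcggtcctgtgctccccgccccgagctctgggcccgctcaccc
The Dlk1 stretch lies at chr12:109452573-109452822 on the plus strand and that of Nr2f2 at chr7:70366747-70366996 on the minus strand. Rxrg has 2 listed starts, and the 1 with the half-site lies at chr1:167618015-167618264 on the plus strand. The Oxtr stretch is chr6:112489826-112490075 on the minus strand and that of Htr2c is chrX:146962263-146962512 on the plus strand. Those of Lct and Robo3 are chr1:128328319-128328568 and chr9:37433176-37433425, both on the minus strand, and Sema5a has chr15:32244563-32244812 on the plus strand. The half-site was present on either strand in 14% of the 32851 RefSeq promoters searched, in 9.26% of the 108 promoters of ventral-high genes and in 10.9% of the 46 promoters of dorsal-high genes. Promoters were matched for 82 of the 116 genes at least 2-fold higher in ventral tissue in all 3 pairs. On the lower side 36 of the 47 genes were matched, and not every chromosome was searched. The 8 genes shown were picked by name and do not stand for these sets. These shares describe letters in this window only.

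Regional differences of treated mice were many and mostly small. Over the 3 pairs, 3481 genes (25.9% of the 13421 tested) were higher in ventral tissue and 2435 (18.1%) lower at an adjusted p under 0.05 in edgeR's quasi-likelihood test with the treatment as a block, 44.1% of all genes tested. The sign of the difference was the same in all 3 pairs for 67.3% of the joined genes. A far smaller set differed at least 2-fold in every pair, with 116 genes higher (0.863%) and 47 lower (0.35%). All 163 (1.21%) passed edgeR's test, which follows from their choice on the same 3 pairs and is no further evidence. A single pair would have given more, with 218 genes (1.62%) at least 2-fold higher and 74 (0.55%) lower in Handling, 153 (1.14%) and 84 (0.625%) in Restraint, and 149 (1.11%) and 66 (0.491%) in Swim. At the limit of 2-fold, Kcnf1 and Vwc2l had smallest log2 differences of 1.00 and 1.00 and were inside, while Unc5d had 0.99 and was outside. On the lower side Prkcd (-1.01) and Net1 (-1.02) were inside and Sebox (-0.998) and Wnk4 (-0.99) outside.

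**Figure D2:**
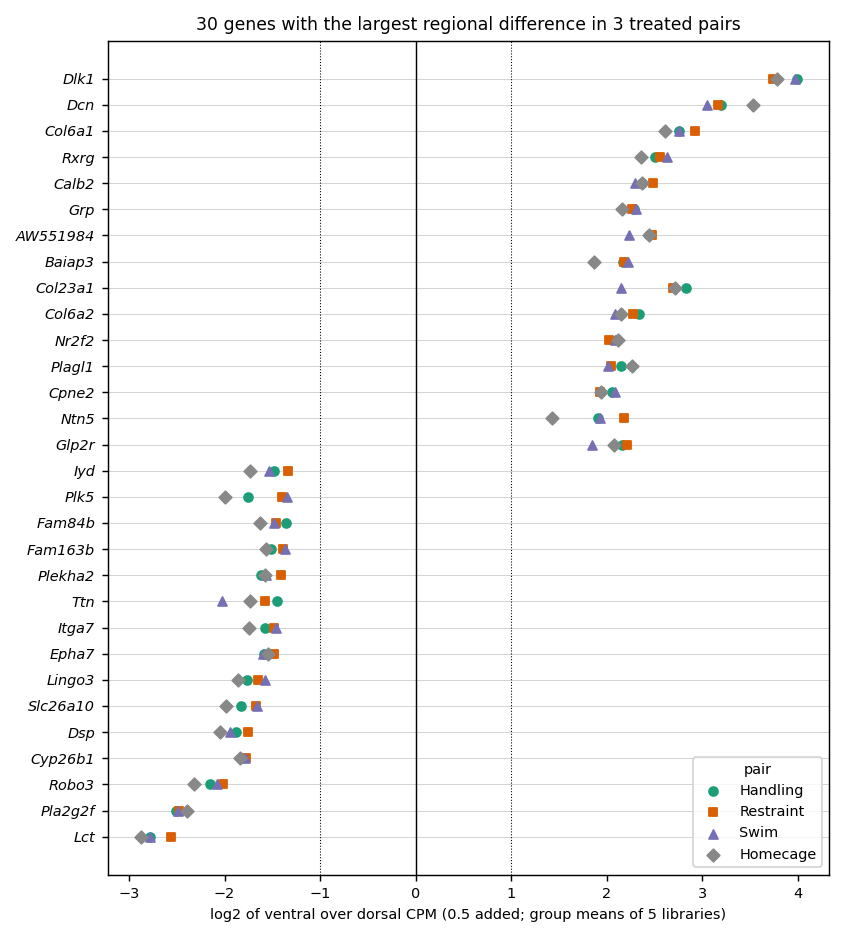
Log2 of ventral over dorsal CPM (0.5 added, group means of 5 libraries) for the 15 genes higher and the 15 genes lower in ventral tissue with the largest smallest difference over the 3 treated pairs. Green circles are Handling, orange squares Restraint, purple triangles Swim and grey diamonds Homecage, and the dotted lines mark 2-fold. In treated mice the points lie close together for Dlk1, from 3.75 to 3.99, and further apart for Col23a1, from 2.15 to 2.83. Homecage lies on the same side for each gene.

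On the ventral side Dlk1 led. Dlk1, an imprinted gene for a secreted and membrane-bound relative of Notch ligands, was at 21.8, 21.001 and 23.0 CPM in ventral Handling, Restraint and Swim, against 0.903, 1.10 and 0.998 CPM in the dorsal groups. Its log2 difference was 3.902 ± 0.14 (SD, n = 3 pairs), and edgeR, which adds less to low counts, gave 4.45 ± 0.08 (SE) with an adjusted p of 1.57e-07. Dcn, which encodes the proteoglycan decorin, was at 71.7, 70.5 and 75.6 CPM in ventral tissue, against 7.36, 7.40 and 8.71 CPM in dorsal tissue. The decorin difference was 3.14 ± 0.08 (SD, n = 3 pairs), and the ventral and dorsal levels did not overlap. Col6a1 and Col6a2, the partner chains of collagen VI, had mean log2 differences of 2.81 and 2.23, and Col23a1, a membrane-anchored collagen, had 2.56. For Col23a1 the dorsal Swim level of 6.07 CPM was above the 3.49 and 3.40 CPM of dorsal Handling and dorsal Restraint, and its difference was 2.15 in Swim, against 2.83 in Handling and 2.69 in Restraint. Grp, the precursor of gastrin-releasing peptide, was at 20.1, 20.3 and 23.1 CPM in ventral tissue, against 3.72, 3.82 and 4.27 CPM in dorsal tissue, and its 3 differences lay between 2.26 and 2.31. Ntn5, a member of the netrin family, had 1.91, 2.18 and 1.93.

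Transcription factors stood on both sides of the axis. Nr2f2, which encodes the orphan nuclear receptor COUP-TFII, was at 32.1, 31.1 and 32.8 CPM in ventral tissue, against 7.04, 7.25 and 7.32 CPM in dorsal tissue, with differences of 2.11, 2.03 and 2.09. Rxrg, a retinoid X receptor, was at 7.40, 7.46 and 8.04 CPM, against 0.886, 0.851 and 0.875 CPM in the dorsal groups. Plagl1, an imprinted zinc finger gene, differed by 2.07 on average. Across the 40 patterning factors listed, 16 were higher in ventral tissue and 15 lower, where 25.9% and 18.1% of all genes were. The median difference was -0.03, against 0.02 over all joined genes. Tshz2 (mean log2 1.20), Tshz3 (0.79) and Fezf2 (0.78) followed Nr2f2 on the ventral side. Prox1, the factor that keeps dentate granule cell identity, was the most dorsal of them at 93.1, 103 and 93.8 CPM in ventral tissue, against 193, 186 and 197 CPM in dorsal tissue. Zbtb20 and Bcl11b followed with mean differences of -0.78 and -0.75. For Tshz2 the dorsal Swim group stood apart at 66.1 CPM, against 39.9 and 41.6 CPM in dorsal Handling and dorsal Restraint.

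Of the other ventral leaders, Calb2, the calcium buffer calretinin, was at 43.6, 47.5 and 46.8 CPM in ventral tissue, against 8.002, 8.07 and 9.12 CPM in dorsal tissue. Cpne2, a copine that binds membranes through calcium, had differences of 2.06, 1.93 and 2.09, and Baiap3, a protein of vesicle release, had 2.17, 2.18 and 2.22. Glp2r, the receptor of the gut peptide GLP-2, had 2.17, 2.22 and 1.85. AW551984 had a mean of 2.39. Over these 15 ventral genes edgeR's adjusted p lay between 1.4e-07 and 6.48e-06.

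On the dorsal side Lct led. Lct encodes lactase, an enzyme of the gut that is also a dentate granule cell marker of mouse hippocampus, and it was at 19.2, 20.9 and 17.1 CPM in ventral tissue, against 135.5, 126 and 121 CPM in dorsal tissue. The difference was -2.71 ± 0.13 (SD, n = 3 pairs), and edgeR gave -2.74 ± 0.05 (SE) with an adjusted p of 1.57e-07. Robo3, a member of the Robo family of guidance receptors, was at 15.9, 14.8 and 15.3 CPM in ventral tissue, against 72.5, 61.2 and 66.0 CPM in dorsal tissue. Epha7, a receptor for ephrins, was at 87.5, 88.5 and 80.6 CPM, against 263, 248 and 245 CPM in the dorsal groups. Cyp26b1, the enzyme that degrades retinoic acid, had differences of -1.82, -1.77 and -1.79, with an SD of 0.02. Dsp, the junction protein desmoplakin, had -1.89, -1.76 and -1.94. Pla2g2f, a secreted phospholipase, was close to 1 CPM in ventral tissue, at 1.09, 1.07 and 0.872, against 8.56, 8.21 and 7.22 CPM in dorsal tissue. Lingo3, Slc26a10, Itga7, Plekha2, Fam163b, Fam84b, Plk5, Iyd and Ttn made up the rest of the 15, with mean differences between -1.72 and -1.42. Over the 15 dorsal genes edgeR's adjusted p lay between 1.57e-07 and 3.42e-05.

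**Figure D3:**
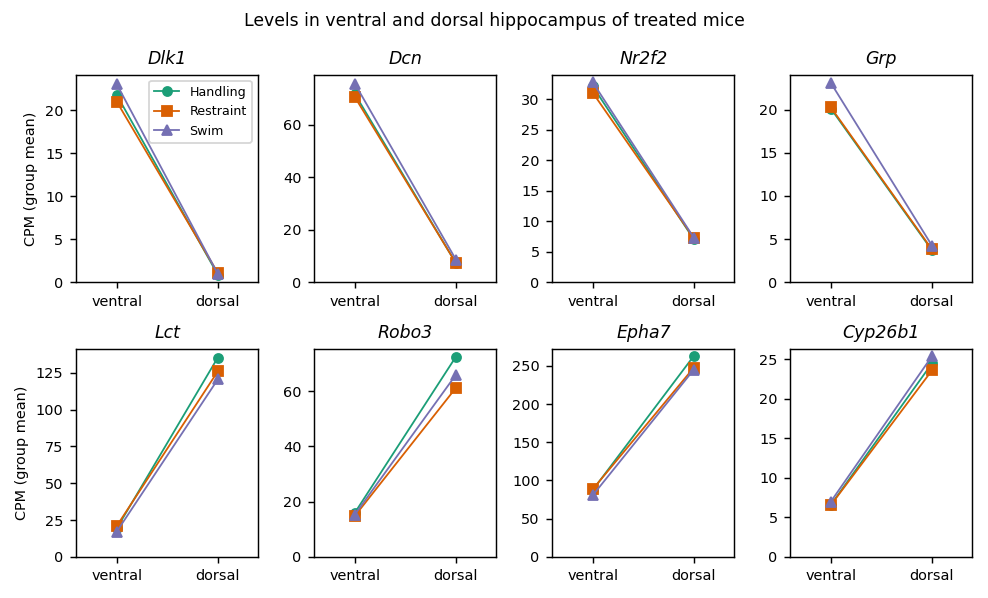
CPM (group mean of 5 libraries, linear axis from 0) of 4 ventral-high and 4 dorsal-high genes in ventral (left) and dorsal (right) hippocampus, with 1 line for each treatment. The 3 lines of each panel nearly coincide, as for Nr2f2 at 31.1 to 32.8 CPM in ventral and 7.04 to 7.32 CPM in dorsal tissue.

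Axis markers listed for this tissue were checked next. All 11 joined ventral markers of 12 listed (Trhr was not joined) were higher in ventral tissue and 10 of them at least 2-fold in every pair, with a median difference of 2.07. Lypd1 was the exception in size, at 0.20, 0.21 and 0.28. Of the 4 dorsal markers 3 were lower, namely Lct, Spata13 (-1.26 on average) and Wfs1, a CA1 gene of the endoplasmic reticulum, which was at 111, 92.9 and 112 CPM in ventral tissue, against 185, 199 and 181 CPM in dorsal tissue. Gsg1l had 0.19, -0.12 and 0.06 and did not pass (edgeR, adjusted p = 0.548). Over all genes 25.9% were higher and 18.1% lower, and 0.863% and 0.35% were so at least 2-fold in every pair. The axis markers were chosen with earlier results of these libraries known, and their counts are no independent evidence.

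Principal cell markers split by cell type. Beside edgeR, an alternative test took its error from the spread between mice implied by the authors' p-values, called the error between mice here. Of the 12 dentate granule cell markers 10 were lower in ventral tissue, 1 higher (Calb1, mean 0.12, not called with DESeq2, with the error between mice or without the Restraint pair) and 1 did not pass, with a median of -0.86. Besides Lct, Dsp, Plk5 and Prox1 these were Tdo2, a tryptophan-degrading enzyme (-1.01), Stxbp6, C1ql2 (-0.85), Trpc6, Sema5b and Cdh9. The summed level of the list was 480, 500.0 and 470 CPM in ventral tissue, against 955, 895 and 899 CPM in dorsal tissue. CA1 markers were divided, 5 higher and 5 lower of 10, against 25.9% and 18.1% of all genes. The number higher was 3 with TMM factors, with DESeq2, with the error between mice, and without the Handling or the Swim pair. Nov, a matricellular protein of ventral CA1, was at 151, 145 and 160 CPM in ventral tissue, against 56.4, 58.7 and 59.1 CPM in dorsal tissue, while Lefty1 had -1.49, -1.32 and -1.19. Of 11 CA2 and CA3 markers 4 were higher, led by Socs2 (1.13 on average), and 7 lower, led by Iyd (-1.45) and Cacng5 (-1.31). Subiculum markers were higher in 6 of 7 cases, led by Dlk1 and Tpbg (1.799 on average), and the median was 0.82. Nts, the neurotensin precursor, was the 7th, at 5.46, 4.93 and 5.19 CPM in ventral tissue, against 3.58, 4.604 and 5.48 CPM in dorsal tissue, and its groups overlapped.

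Interneuron genes leaned ventral. Of 15 tested, 13 were higher in ventral tissue, against 25.9% of all genes, and the median difference was 0.38. Vip, Htr3a, Erbb4, Lhx6 and Reln had mean differences from 0.33 to 0.75, and Gad1 and Gad2, the enzymes that make GABA, had 0.17 and 0.19. Npy alone was lower (-0.54). Pvalb, the marker of fast-spiking cells, was at 22.9, 21.7 and 21.8 CPM in ventral tissue, against 22.1, 24.2 and 24.9 CPM in dorsal tissue, and did not pass over all 3 pairs (edgeR, adjusted p = 0.167).

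Neuropeptide genes went both ways, 8 higher and 6 lower of 19, against 25.9% and 18.1% of all genes. Beside Grp and Vip, Adcyap1 (0.75), Tac2 (0.64) and Tac1 (0.50) were higher in ventral tissue. Penk, the enkephalin precursor, was at 14.7, 14.2 and 15.6 CPM in ventral tissue, against 37.5, 34.4 and 33.4 CPM in dorsal tissue. Pdyn, the dynorphin precursor of granule cells, was at 7.88, 8.50 and 8.37 CPM in ventral tissue, against 20.7, 19.8 and 18.8 CPM in dorsal tissue. Penk and Pdyn had the same mean difference, -1.21.

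Hormone and peptide receptors also stood on both sides. Oxtr, the oxytocin receptor, was at 15.8, 18.0 and 17.0 CPM in ventral tissue, against 5.21, 5.61 and 5.41 CPM in dorsal tissue, a difference of 1.56 ± 0.04 (SD, n = 3 pairs). Oprm1, the mu opioid receptor, and Oprl1, the nociceptin receptor, had mean differences of 0.97 and 0.71. On the dorsal side Nr3c2, the mineralocorticoid receptor, was at 150, 163 and 157 CPM in ventral tissue, against 235, 244 and 242 CPM in dorsal tissue. Hsd11b1, the enzyme that regenerates active glucocorticoid, had -0.71, -0.67 and -0.74. Nr3c1, the glucocorticoid receptor, had small differences of -0.05, -0.10 and -0.17, and Fkbp5, its co-chaperone, had -0.17, -0.07 and -0.10. Both passed edgeR's test over the 3 pairs (adjusted p = 0.0328 and 0.0217), but Nr3c1 no longer passed without the Restraint or the Swim pair (adjusted p = 0.148 and 0.0522), nor Fkbp5 without the Handling or the Restraint pair (0.153 and 0.0733). Sgk1, a kinase induced by glucocorticoids, was at 59.2, 82.2 and 77.3 CPM in ventral tissue, against 64.5, 94.8 and 95.7 CPM in dorsal tissue. Of the 20 stress hormone receptors and regulators tested, 7 were higher and 8 lower, against 25.9% and 18.1% of all genes, with a median of -0.01. The number lower was 5 without the Restraint pair and with the error between mice.

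Serotonin receptors were higher in 6 of 11 cases (4 with DESeq2, with the error between mice or without the Restraint pair) and lower in 2, where 25.9% and 18.1% of all genes were. Htr2c, which is also abundant in choroid plexus, was at 62.0, 55.2 and 53.0 CPM in ventral tissue, against 12.2, 21.9 and 15.4 CPM in dorsal Handling, Restraint and Swim. The dorsal level was highest in Restraint, the dorsal group with the choroid plexus markers, and the part of that tissue was not tested. Its difference was 2.30 in Handling, 1.32 in Restraint and 1.76 in Swim, and it passed edgeR's test over the 3 pairs (adjusted p = 8.7e-05). Htr7 (0.95, 1.14 and 0.91), Htr3a and Htr5a were also higher, and Htr1f was lower. Htr1a, the main inhibitory serotonin receptor of the region, was at 44.4, 45.1 and 43.5 CPM in ventral tissue, against 45.2, 48.4 and 43.6 CPM in dorsal tissue, and did not pass (edgeR, adjusted p = 0.361). Among 19 noradrenaline, dopamine and acetylcholine receptors 10 were higher, led by Chrm5, Adra2a and Adra1a with means of 1.05, 1.05 and 1.01, and 4 lower, led by the muscarinic receptor gene Chrm3 (-0.73).

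Channels and fast transmitter receptors differed by subunit. Grin3a, an NMDA receptor subunit, was at 71.8, 71.8 and 72.5 CPM in ventral tissue, against 29.1, 33.1 and 32.3 CPM in dorsal tissue. Gabra3, a GABA-A receptor subunit, was at 100.7, 97.2 and 102 CPM, against 40.6, 44.0 and 47.0 CPM in dorsal tissue. Gabrd, the subunit of extrasynaptic receptors, had -0.66, -0.69 and -0.61, and Gabra5 had -0.39, -0.33 and -0.30. Of the 24 glutamate receptor genes 13 were higher and 7 lower, of the 14 GABA receptor genes 5 and 5, and of the 58 potassium and HCN channel genes 27 and 22, beside 25.9% and 18.1% of all genes. Kcnf1 led the channels (1.04 on average). Gria2 and Gria3, the abundant AMPA receptor subunits, did not pass, with mean differences of -0.09 and -0.04.

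Guidance and adhesion genes held members at both ends. Efna5, an ephrin, had 1.69, 1.38 and 1.18, and Efnb2 had 1.28, 1.08 and 1.15, whereas the receptors Epha7 and Epha6 were lower (-1.55 and -0.76 on average). Slit2, a repulsive ligand, was at 81.7, 85.8 and 83.4 CPM in ventral tissue, against 31.2, 36.2 and 36.1 CPM in dorsal tissue. Robo3 was lower in ventral tissue. Sema5a had -1.27, -1.03 and -1.24, and Plxnc1 had 1.06, 1.08 and 1.02. In counts, 7 Eph and ephrin genes were higher and 9 lower of 20, 23 and 13 of 45 semaphorin, plexin, netrin and slit genes, and 16 and 5 of 28 cadherins. Over all genes the shares were 25.9% and 18.1%. Cadherin members Pcdh11x, Pcdh15 and Cdh13 were higher by 1.12, 1.02 and 0.92. Of 35 Wnt pathway genes 16 were higher and 8 lower. Rspo2, an enhancer of Wnt signals, was at 27.0, 24.8 and 27.9 CPM in ventral tissue, against 9.44, 9.91 and 11.8 CPM in dorsal tissue, Wnt4 differed by 1.26 on average, and Wnt2 by -1.33.

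Oligodendrocyte genes were lower in ventral tissue throughout. All 12 oligodendrocyte markers were lower in ventral tissue, with a median of -0.55 and a range of -0.70 to -0.44. Mbp, the myelin basic protein gene, had -0.50, -0.61 and -0.70. Their summed level was 3511, 3507 and 3331 CPM in ventral tissue, against 4820, 5175 and 5553 CPM in dorsal tissue. Microglia markers were lower in 10 of 12 cases by small amounts (median -0.21), among them Cx3cr1 (-0.21). The number lower was 7 without the Restraint pair. The 16 endothelial markers had 0 higher and 2 lower (median 0.03), but 2 higher and 0 lower without the Swim pair, and the 12 astrocyte markers had 4 higher and 4 lower, including Gfap (-0.37). Of 8 oligodendrocyte precursor markers 2 were higher and 3 lower. Over all genes 25.9% were higher and 18.1% lower, and the share of precursor markers that were higher was near the former.

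**Figure D4:**
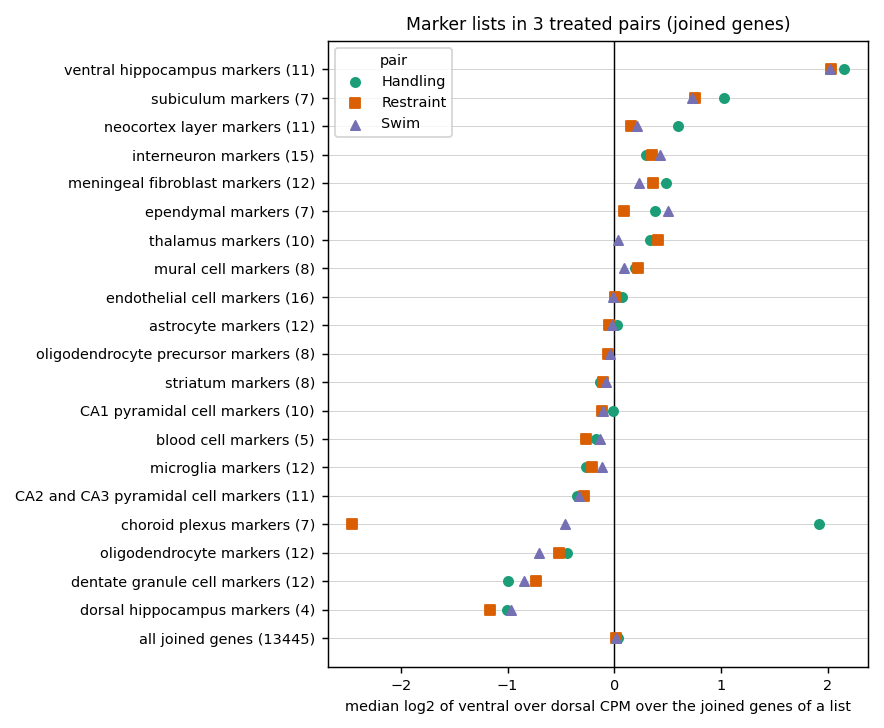
Median log2 of ventral over dorsal CPM over the joined genes of each marker list (number in brackets) in the Handling (circles), Restraint (squares) and Swim (triangles) pairs, with all joined genes in the bottom row. The 3 pairs have the same sign for oligodendrocyte, dentate, subiculum and interneuron lists, while choroid plexus markers lie at 1.92 in Handling, -2.45 in Restraint and -0.46 in Swim.

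Markers of tissue next to the hippocampus were counted in the same way. Over all genes 25.9% were higher and 18.1% lower, and some of the counts below are near these shares. Meningeal fibroblast markers were higher in 10 of 12 cases (median 0.37), and 2 of 12 passed with the error between mice. Mural cell markers were higher in 5 of 8, with 3 passing in DESeq2 and 2 with the error between mice. Ependymal markers were higher in 4 of 7, with 0 passing with that error or without the Swim pair. Blood cell markers were lower in 4 of 5, with 0 passing with that error and 2 without the Restraint pair. Neocortex layer markers were higher in 6 of 11 and lower in 2, thalamus markers 5 and 2 of 10, and striatum markers 2 and 4 of 8 (2 and 1 with DESeq2, 2 and 2 without the Restraint pair). In dorsal Swim the summed subiculum markers stood at 124 CPM, against 101.4 and 108 CPM in dorsal Handling and dorsal Restraint, and the neocortex markers at 436, against 392 and 406 CPM. The ventral leaders included collagen genes, which meningeal cells also make. The meningeal gene Col1a1 was at 5.35, 5.94 and 7.33 CPM in ventral tissue, against 3.99, 4.12 and 5.53 CPM in dorsal tissue, a mean difference of 0.41 where that of Col6a1 was 2.81. The part of meninges and of neighbouring tissue in these results was not tested.

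A further 222 genes were held on 1 side only and were not joined. Of these, 158 were listed in all 3 ventral treated tables and in none of the dorsal ones, and 64 the other way round. Most were low, with a median of 1.05 CPM on the ventral side and 1.04 CPM on the dorsal side. Dio3, the enzyme that inactivates thyroid hormone, was at 8.02, 9.24 and 9.51 CPM in ventral Handling, Restraint and Swim. Tacr3, the neurokinin B receptor, was at 6.40, 6.23 and 6.87 CPM, and Vgll3 at 4.89, 4.97 and 5.13 CPM. On the dorsal side Mylk3, a myosin light chain kinase, was at 4.72, 4.42 and 4.40 CPM, and Lrmp at 3.40, 3.98 and 3.63 CPM. Being listed on 1 side only fixes the direction of these genes, so their number is no result. In the authors' deposited Homecage table Dio3 had a log2 of 4.06 and Mylk3 of -3.12.

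Homecage mice, whose libraries are separate from those of treated mice, carried the same differences. All 116 ventral genes and all 47 dorsal genes were called in the same direction in the authors' deposited Homecage table, in which 18.4% of 13754 genes were called higher in ventral tissue and 20% lower. Scaled as the treated pairs were, 109 of the 116 and 44 of the 47 were also at least 2-fold in Homecage, where 198 joined genes (1.47%) were at least 2-fold higher and 107 (0.796%) lower. The median difference of the 116 genes was 1.52 in Handling, 1.37 in Restraint, 1.39 in Swim and 1.49 in Homecage, and that of the 47 genes -1.32, -1.28, -1.30 and -1.38. Among the 116 genes Homecage exceeded all 3 treated pairs for 39 genes and fell short of all 3 for 34, and among the 47 genes the numbers were 22 and 8. Whole hippocampus after the same treatment lay between the ventral and the dorsal level in all 3 treatments for 114 of the 116 genes and for 47 of the 47. Dlk1, for example, was at 11.1, 13.4 and 14.7 CPM in whole tissue, and Lct at 54.7, 52.8 and 48.6 CPM. Whole tissue holds both regions, and these genes were chosen for a wide gap between them. A level in between was thus nearly fixed in advance and is no further evidence.

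Across the 13445 joined genes the pairs resembled each other to different degrees. Pearson's r of the regional difference was 0.76 between Handling and Restraint, 0.84 between Handling and Swim and 0.87 between Restraint and Swim. With Homecage it was 0.87 for Handling, 0.80 for Restraint and 0.76 for Swim. Spearman's rho was 0.80 between Handling and Restraint, 0.73 between Handling and Swim and 0.78 between Restraint and Swim. With Homecage rho was 0.82 for Handling, 0.72 for Restraint and 0.56 for Swim. Which treated pairs were most alike thus depends on the measure. These are descriptions across genes, which are not independent replicates. The pairs also differed in their relation to GC content of the transcripts, with a Spearman's rho across genes of -0.08 in Handling, -0.01 in Restraint and 0.29 in Swim, against -0.37 in Homecage.

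The regional difference after each treatment was set against that in Homecage. In the authors' deposited tables, ventral tissue had 118 genes (0.856%) called against Homecage after Handling, 329 (2.39%) after Restraint and 955 (6.94%) after Swim. Dorsal tissue had 17 (0.125%), 84 (0.616%) and 61 (0.447%) in the same tables. The treatment's log2 fold change over Homecage in ventral tissue, less that in dorsal tissue, was above 0 at an adjusted p under 0.05 for 12 genes (0.0889%) after Handling, 236 (1.75%) after Restraint and 938 (6.93%) after Swim. It was below 0 for 0, 31 (0.229%) and 446 (3.3%) genes. For the count of 0 after Handling, 89 genes lay below 0 at an unadjusted p under 0.05 in the same normal test, the only one run on this difference. With the trend of each table on GC content subtracted, a step that removes any change which follows GC content, the counts above 0 were 11, 1 and 16, and those below 0 were 0, 6 and 55. Of the 163 genes with a 2-fold difference in every treated pair, 19 of the 116 ventral and 3 of the 47 dorsal genes had a call in at least 1 treatment. These calls are without the GC subtraction. The share of all genes with a call in at least 1 treatment was not counted, and Swim alone called 6.93% above and 3.3% below 0. The counts of 19 and 3 are thus no result about these genes.

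After Handling the 6 genes with the lowest p were all high where the choroid plexus markers were high. Mfrp, for instance, was at 17.8 CPM in ventral Handling and 0.723 CPM in ventral Homecage, and at 1.73 CPM in dorsal Handling and 1.16 CPM in dorsal Homecage. In dorsal Restraint, the other group with the choroid plexus markers, Mfrp was at 14.3 CPM. Col9a3, Trpv4, Abca4 and the listed markers Kl and Enpp2 shared this pattern, and the part of choroid plexus was not tested. After Swim the lowest p belonged to Slc17a6, the vesicular glutamate transporter of subiculum and thalamus neurons. It was at 20.8 CPM in ventral Swim and 29.0 CPM in ventral Homecage, and at 18.8 CPM in dorsal Swim and 11.8 CPM in dorsal Homecage. Its change was -1.14 ± 0.18 (SE, adjusted p = 7.97e-06 in the normal test) and -1.04 with the GC trend subtracted (adjusted p = 9.15e-05). Dorsal Swim was also the dorsal group with the highest subiculum sum. The summed thalamus markers were at 136, 142 and 118 CPM in ventral Handling, Restraint and Swim, against 138, 141 and 153 CPM in the dorsal groups. After Swim 2 of 10 thalamus markers were called below 0, with and without the GC trend, Slc17a6 among them. Other lists had such calls too. They were 2 of 7 subiculum markers (1 with the GC trend subtracted), 4 of 11 neocortex markers (1) and 4 of 12 oligodendrocyte markers (0). Over all genes 446 (3.3%) were below 0, and 55 with the GC trend subtracted. Slc17a6 is on both the subiculum and the thalamus list, so its own level adds to both sums. The subiculum and thalamus lists are thus not separate evidence, and the part of any of these tissues was not tested. Rxfp1, the relaxin receptor, had -1.19 after Swim, with 28.2 CPM in ventral and 22.0 CPM in dorsal tissue, against 40.8 and 13.9 CPM in ventral and dorsal Homecage. Homer3, Plch2, Gm20605, Lmtk3 and Adra1d were called after Restraint and lost the call with the GC trend subtracted.

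Immediate early genes, which neurons switch on within minutes of activity, had members on both sides in treated mice. Of the 29 tested, 9 were higher and 9 lower in ventral tissue over the treated pairs, against 25.9% and 18.1% of all genes, with a median difference of 0.03. The count was 14 higher and 8 lower without the Handling pair, and 8 higher and 12 lower without the Restraint pair. Their median difference was -0.24 after Handling, 0.17 after Restraint and 0.08 after Swim, against -0.30 in Homecage. Fos was at 22.6, 22.0 and 22.9 CPM in ventral tissue and 18.4, 14.4 and 15.5 CPM in dorsal tissue of Handling, Restraint and Swim, against 5.55 CPM in ventral and 5.66 CPM in dorsal Homecage. Arc was at 174, 135 and 146 CPM in ventral tissue and 300.4, 198 and 197 CPM in dorsal tissue, against 71.6 CPM in ventral and 134 CPM in dorsal Homecage. Both genes were above Homecage in both regions after each treatment, but Fos was higher in ventral and Arc higher in dorsal tissue of each treated pair. Fosl2 (0.86 on average) stayed ventral and Bdnf (-0.66) and Egr1 (-0.52) stayed dorsal, as they were in Homecage.

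Against Homecage, 9 of the 29 immediate early genes moved towards ventral tissue after Restraint and 12 after Swim, and 1 moved towards dorsal tissue after each, while none did after Handling (1 above and 0 below at an unadjusted p under 0.05 in the normal test). Over all genes 1.75% after Restraint and 6.93% after Swim moved towards ventral tissue, and 0.229% and 3.3% towards dorsal tissue. After Handling 0.0889% of all genes moved towards ventral tissue and 0 towards dorsal tissue. The 1 of 29 that moved towards dorsal tissue after Swim is near the share of all genes. Fos changed by 0.65 ± 0.17 (SE) after Restraint and 0.60 ± 0.19 after Swim (adjusted p = 0.0196 and 0.0245 in the normal test). Egr4 was at 9.60, 7.58 and 10.2 CPM in ventral tissue and 15.5, 9.27 and 10.03 CPM in dorsal tissue, against 3.59 CPM in ventral and 10.2 CPM in dorsal Homecage. Its change was 1.24 after Restraint and 1.55 after Swim, and with the GC trend subtracted 0.63 and 0.80 (adjusted p = 0.662 and 0.292 in the normal test). With the GC trend subtracted 0 and 2 of the 29 kept a call towards ventral tissue (Egr3 and Btg2 after Swim). Over all genes 1 of 13516 after Restraint and 16 of 13533 after Swim then had such a call, so calls were lost throughout. The median change of the list, 0.37 and 0.31 as deposited, was then 0.28 and 0.27. With that subtraction the change of Fos was 0.59 after Restraint and 0.48 after Swim (adjusted p = 0.141 and 0.363). The treatments share the Homecage libraries, so their values are given side by side and were not compared with each other.

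**Figure D5:**
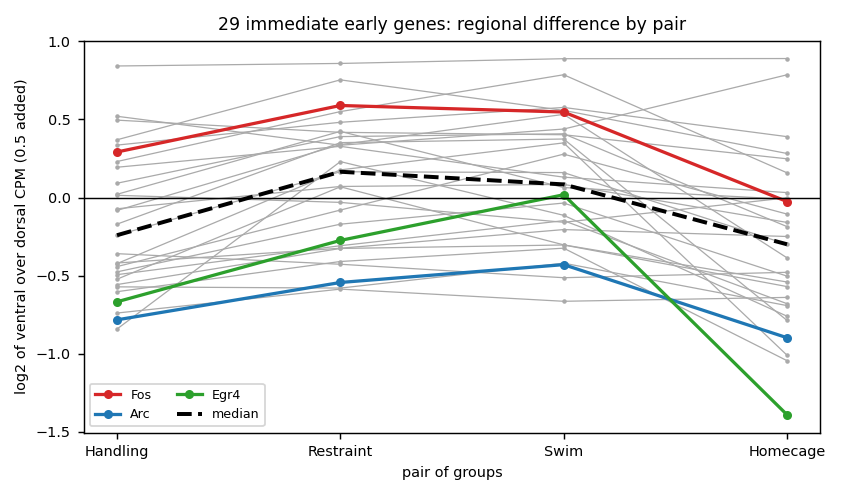
Log2 of ventral over dorsal CPM (0.5 added) of 29 immediate early genes in the Handling, Restraint, Swim and Homecage pairs, with 1 line per gene, Fos, Arc and Egr4 in colour and the median dashed. The median is -0.24, 0.17 and 0.08 in the treated pairs and -0.30 in Homecage.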

How the data were processed

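RNA was measured by poly(A)-selected sequencing of ventral, dorsal and whole hippocampus, 5 libraries per group in 12 groups. Bowtie 0.12.2 and mm8 appear, without a stated role, per the submitters' processing notes, and the counting tool is not given in the sources used here. Per the file headers, the deposited tables hold group means, a fold, a log2 fold change, a p-value and an adjusted p-value. The deposited group means are read here as estimated counts not scaled for depth, since 5 times a mean was a multiple of 0.01 for 100% of 164740 means (within 0.001 of a step). The deposited fold ratio and log2 fold change compare a treatment with Homecage on a scale the authors set. In the authors' Homecage table they compare ventral with dorsal Homecage. The deposited p-values belong to the same comparisons. The labels do not say whether the 5 libraries of a group came from separate animals, although the design text gives 5 mice per condition.

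Genes were joined on the Ensembl ID and scaled to CPM of the column total. Group means times 5 were rounded and tested with edgeR 4.0.16 (R 4.3.3, quasi-likelihood, treatment as a block) over the 13421 genes with at least 1 CPM in 3 of 6 columns, with Benjamini-Hochberg adjustment. Its error is the spread of the regional difference between the 3 pairs. Its common coefficient of variation was 5.71%. The count of genes at least 2-fold in each pair has no test. The change against Homecage was tested with a normal test on the ventral minus dorsal deposited log2 fold change, with errors implied by the deposited p-values. Where a deposited p was above 0.95 the error was the median of the 101 genes nearest in count. This test takes the regions as independent. GC content came from GENCODE M21 and covered 99.8% of genes, and trends were fitted by lowess with a fraction of 0.3. Both tests were tested on simulated data.

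The members, the 33 gene lists and the tests were chosen with earlier results of these data known. Named genes are the 15 per direction with the largest smallest log2 difference over the 3 pairs, at least 5 CPM in the higher region, up to 5 called and 2 other members per list, the 6 lowest p-values per treatment against Homecage, up to 5 genes per region-only set, and a fixed set that includes Fos, Arc, Nr3c1 and Ttr. Further list members were named after their values were seen. Alternatives were TMM factors, DESeq2 1.42.0, limma 3.58.1, other filters, added constants and folds, no block, each pair left out, a GC trend subtracted, and errors between mice.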

Additional observations from a re-analysis of the deposited data

Results flagged for a closer look

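For 18 combinations of gene and treatment the regional difference departed from that in Homecage at an adjusted p under 0.05 in the normal test, and these had the lowest p-values of their treatment. Each value is the log2 fold change over Homecage in ventral tissue less that in dorsal tissue, both from the authors' deposited tables. After Handling the values were 1.67 for Col9a3, 4.06 for Mfrp, 2.46 for Trpv4, 1.59 for Kl, 2.21 for Abca4 and 2.18 for Enpp2. These 6 kept their call with the GC trend subtracted, and all 6 were high in the groups with choroid plexus markers.

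After Restraint they were 0.59 for Homer3, 0.49 for Plch2, 0.77 for Gm20605, 0.76 for Lmtk3, 0.78 for Adra1d and -2.58 for Gm10273. With the GC trend subtracted only Gm10273 of these 6 kept its call. After Swim they were -1.14 for Slc17a6, -1.19 for Rxfp1, -0.56 for Cntn4, 0.58 for Plch2, 1.55 for Egr4 and 1.42 for Ccno. Slc17a6, Rxfp1 and Ccno kept their call with the GC trend subtracted, and Cntn4, Plch2 and Egr4 did not.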

How the results depend on the processing

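The counts of 3481 higher and 2435 lower genes lay within 1.5 times of these values under every alternative run, from 2569 (DESeq2) to 3687 (no treatment block) higher and from 1765 (error between mice) to 3311 (GC trend subtracted) lower. Leaving out 1 pair gave 2731 to 3495 higher and 1771 to 2380 lower genes. With TMM factors the counts were 2976 and 2876. The 116 and 47 genes at least 2-fold in each pair became 374 and 176 at 1.5-fold, by the looser limit, and 121 to 137 and 51 to 54 with 1 pair left out, where fewer pairs had to pass. With the GC trend subtracted, the genes above 0 against Homecage numbered 1 instead of 236 after Restraint and 16 instead of 938 after Swim, and those below 0 numbered 6 instead of 31 and 55 instead of 446. The cause was not tested. Of the named genes, 0 called over all 3 pairs changed sign under any alternative run. Without the Restraint pair 5 genes not called over all 3 pairs passed in the opposite direction, and with 1 pair left out their log2 differences ran from -2.85 to 1.55 for Ttr, -1.79 to 1.34 for Mfrp, -1.16 to 0.84 for Abca4, -0.93 to 0.82 for Trpv4 and -1.52 to 0.66 for Enpp2. Igf2 did so without the Handling pair, with -0.29 to 0.66. Of the marker lists, choroid plexus had 0 higher and 6 lower of 7 without the Handling pair and 6 higher and 0 lower without the Restraint pair, and endothelial markers had 2 higher and 0 lower of 16 without the Swim pair. No paired analysis was possible because the tables hold group means, with no replicate number in any column. Depth per library is unknown, and no interval between mice could be given for a level.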
